A study of Mus musculus with 23 samples.

Results

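Hif1a and 9 of its transcriptional targets were followed across 23 RNA-seq libraries of mouse splenic CD4+ T cells. The targets were Egln1, Egln3, Bnip3, Bnip3l, Ankrd37, Vegfa, Adm, Ak4 and P4ha1, all outside glycolysis. They were chosen by gene symbol, with earlier results of these data known. They make up 10 of the 53379 gene IDs in the count table, and all 10 passed the filter on low counts. The cells came from C57BL/6 mice that the labels give as wild type or Gpr109a-/-, a knockout of the niacin receptor gene now called Hcar2. They were sorted on CD45, CD3 and CD4 and against CD8, and every culture held IL-2 at 30 IU/ml for 72 h. Stimulated cells also received antibodies to CD3 and CD28 and unstimulated cells did not, in each case without niacin or with 5 mM niacin. This gave 8 groups of 3 libraries each, except for 2 libraries of unstimulated knockout-labelled cells with niacin. The age of the mice and any pooling are not given in the labels.

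Hif1a encodes the oxygen-regulated subunit of hypoxia-inducible factor 1, which pairs with the constant subunit ARNT and binds the short sequence ACGTG or GCGTG in promoters and enhancers. With oxygen present, prolyl hydroxylases (the EGLN proteins) mark the HIF1A protein for the VHL ubiquitin ligase, so the factor is mainly set at the level of protein, which RNA counts do not measure. In T cells the protein also accumulates after engagement of the antigen receptor in the presence of oxygen.

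The 4 genotype-by-niacin backgrounds gave the same picture for the targets. All 9 rose on stimulation in each of them, by log2 0.92 (Bnip3l, knockout label with niacin) or more. Hif1a itself had a smaller log2 fold change than any target in each background, and it did not pass in wild-type-labelled cells with niacin. Across all comparisons of niacin and of the genotype label 2 calls passed the threshold among the members. Hif1a was lower with niacin in stimulated cells when both labels were averaged, and Ankrd37 was lower with the knockout label in stimulated cells with niacin. Leaving out 1 library took the adjusted p of the first past the threshold in 11 of 12 fits and that of the second in 5 of 6, while the log2 differences stayed at -0.66 to -0.52 and -0.78 to -0.60.

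Total counts ran from 13205565 to 30090018 per library, with a median of 24007159. The lowest was library 3 of the unstimulated knockout-labelled cells. Hcar2 held 50, 60, 17 and 42 counts in the 4 knockout-labelled groups and 1 count over all 12 wild-type-labelled libraries. This is the opposite of the direction that the labels would give. Its level was at most 1.37 CPM in any library, and the reason was not tested. The groups are therefore called knockout-labelled and wild-type-labelled throughout. Levels are given in CPM, the count scaled to library size with TMM factors. The summed CPM of 7 T cell identity genes was 3087 to 5706 in unstimulated and 3990 to 4941 in stimulated libraries, and all 7 had counts in every library. The value of 3087 belonged to the low-depth library, and the other 10 unstimulated libraries held 4757 or more. The 2 CD8 markers summed to at most 29.2 CPM, and the 7 B cell markers to at most 12.9 CPM. The 10 myeloid and dendritic cell markers summed to at most 9.69 CPM. The 7 erythroid and platelet markers summed to 7.80 CPM in library 1 of unstimulated wild-type-labelled cells with niacin, and to at most 2.60 CPM in any other. That library also had the highest Hif1a level of the unstimulated ones. The 6 NK cell markers summed to 25.1 to 72.0 CPM in unstimulated and 78.3 to 117 CPM in stimulated libraries, led by Eomes after stimulation, while Ncr1 had group means of 0 to 0.0838 CPM there and Klra8 was at 0 in all groups. The 6 endothelial and stromal markers had a median sum of 215 CPM in unstimulated and 74.5 CPM in stimulated libraries (highest 255 and 92.7), led by Pecam1, with Tek at 0 in all groups. The low-depth library was also the lowest unstimulated one in the CD8 markers (7.88 CPM, against 17.5 or more) and in the endothelial and stromal markers (89.97 CPM, against 165 or more). The part of these shifts in the stimulation results was not tested. Nothing in the labels ties replicates to separate animals, and a p-value here reflects only the scatter of the libraries, which may be technical. In bulk RNA a change in the share of cells of 1 type and a change in RNA per cell cannot be told apart.

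**Figure D1:**
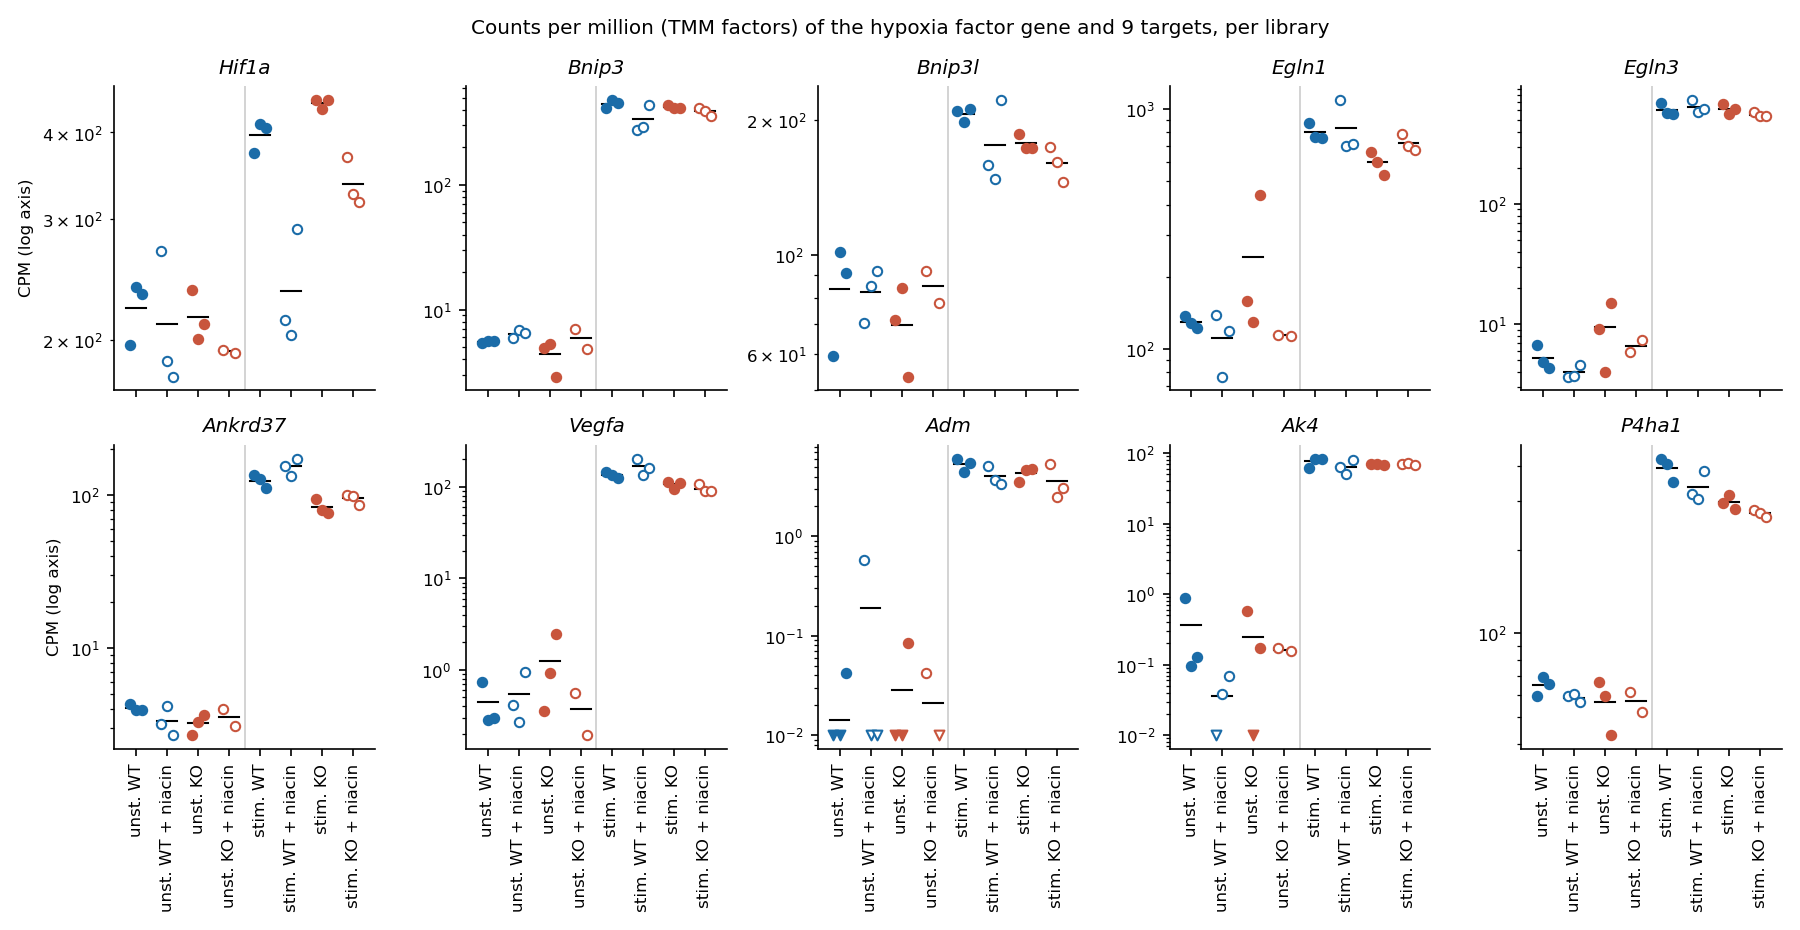
CPM (log axis) of Hif1a and 9 targets in each of the 23 libraries, with 1 panel per gene and the 8 groups on the horizontal axis (unst., unstimulated; stim., stimulated; WT and KO, genotype as labelled). Blue and red mark the wild-type and knockout label, open symbols niacin, black bars the group mean, and triangles libraries with no count, drawn at 0.01. The 9 targets lie higher in all 12 stimulated libraries than in all 11 unstimulated ones, whereas Hif1a does not.

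Hif1a lies at chr12:73901375-73947530 on the plus strand (GRCm38, coordinates of the count table). Its level was already high without stimulation, at 223 ± 22.9 CPM in wild-type-labelled cells (SD, n = 3) and 216 ± 18.1 in knockout-labelled cells (n = 3). With niacin these groups held 211 ± 50.8 (n = 3) and 192 ± 0.99 CPM (n = 2). The 11 unstimulated libraries spanned 177 to 269 CPM, so these 4 groups did not separate as a set. Stimulation without niacin brought Hif1a to 374, 412 and 406 CPM in the wild-type-labelled libraries. The knockout-labelled libraries held 446, 433 and 446 CPM. All 6 lay above every unstimulated library. Stimulated cells with niacin held 214, 204 and 290 CPM under the wild-type label and 368, 326 and 317 CPM under the knockout label. In group order the means ran from unstimulated knockout-labelled with niacin, through the other unstimulated groups, to stimulated wild-type-labelled with niacin (236 ± 47.0), stimulated knockout-labelled with niacin (337 ± 27.3), stimulated wild-type-labelled (397 ± 20.3) and stimulated knockout-labelled (442 ± 7.28). The lowest 5 groups overlapped with their neighbours in that order, and the upper 3 did not overlap with each other or with those below.

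The stimulation effect on Hif1a was a log2 fold change of 0.83 ± 0.15 (standard error) in wild-type-labelled cells without niacin, or 1.78-fold (edgeR adjusted p = 0.000177). It was 1.03 ± 0.15 in knockout-labelled cells (adjusted p = 1.41e-05) and 0.81 ± 0.17 in knockout-labelled cells with niacin (adjusted p = 0.000748). In wild-type-labelled cells with niacin it was 0.16 ± 0.15, with a 95% interval of -0.16 to 0.48, and did not pass (adjusted p = 0.383). Leaving out the unstimulated niacin library with 269 CPM (replicate 1) brought that value to 0.38 (adjusted p = 0.0363), and leaving out replicate 3 of the stimulated arm brought it to -0.01 (adjusted p = 0.949). The difference in the stimulation effect between labels, averaged over niacin, was 0.42 ± 0.16 and did not pass (adjusted p = 0.173).

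Stimulation was called for 10 of 10 members in wild-type-labelled cells without niacin, all higher, where 45.1% of all 16882 genes tested were called and 23.4% were called higher. With niacin under the same label 9 of 10 were called higher (background 52.6%, 26% higher). Under the knockout label 10 of 10 were called higher without niacin (52.7%, 25.2% higher) and with it (49.8%, 24.5% higher). The median log2 fold changes of the members were 5.63, 4.97, 5.39 and 5.39 in these 4 backgrounds, beside -0.07, -0.10, -0.13 and -0.07 over all genes. The groups did not overlap, stimulated above unstimulated, for 10, 9, 10 and 10 members, beside 30.3%, 30.2%, 27.8% and 35.4% of all genes. Adm had 1 count in unstimulated wild-type-labelled cells without niacin and met the filter on low counts through stimulated libraries. Its direction was thus largely fixed in advance. Ak4 and Vegfa were also near 0 there, at 26 and 31 counts. Because the members were chosen with earlier results known, the shares of all genes describe and do not test the set.

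**Figure D2:**
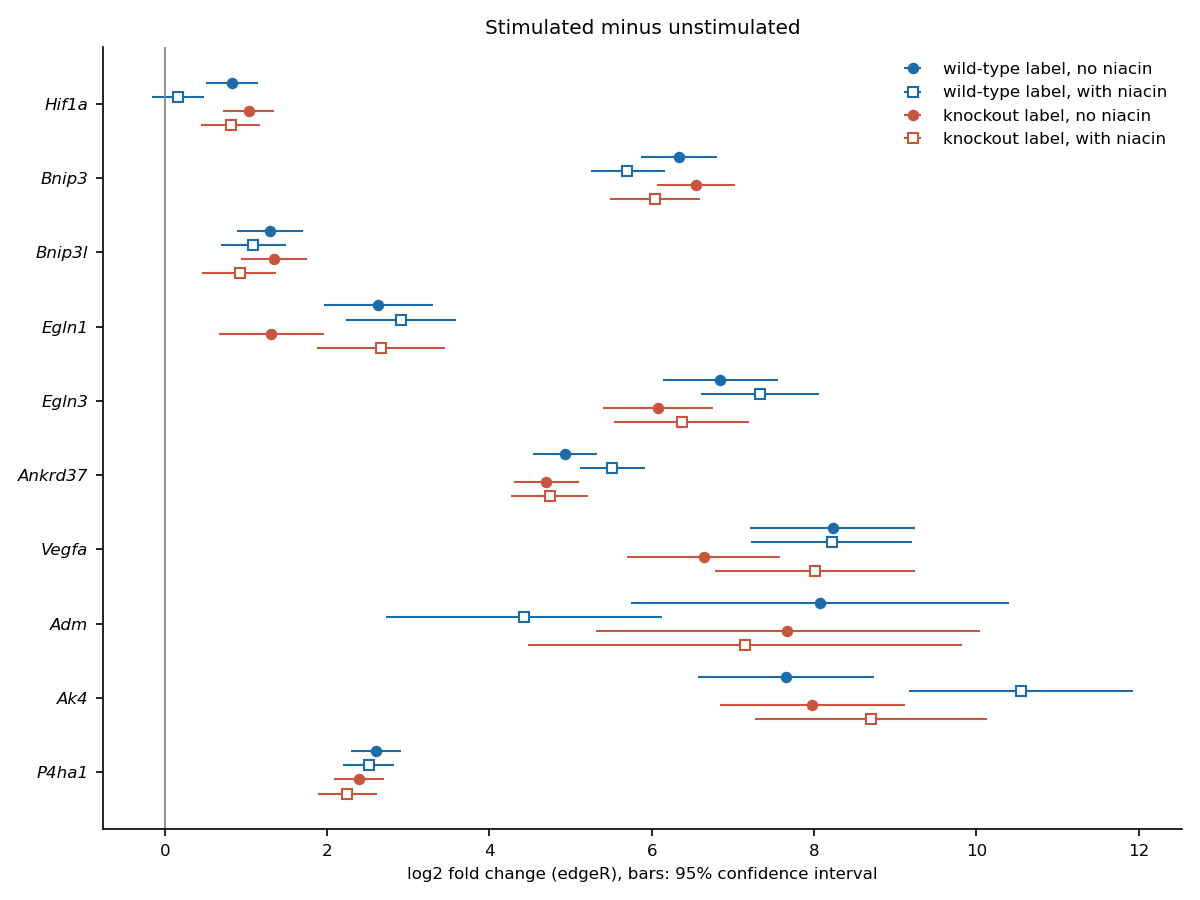
Log2 fold change of each member on stimulation (horizontal axis, edgeR) in 4 backgrounds, with 95% confidence intervals as bars. Hif1a lies between 0.16 and 1.03, Bnip3l between 0.92 and 1.35, and Vegfa, Egln3, Bnip3 and Ak4 above 5.

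The prolyl hydroxylases Egln1 (PHD2, the main oxygen sensor of the pathway) and Egln3 (PHD3) are both targets of the factor and act against it. Egln3, at chr12:54178981-54203860 on the minus strand, held 6.67, 4.82 and 4.36 CPM in unstimulated wild-type-labelled libraries and 695, 569 and 560 CPM after stimulation. The knockout-labelled libraries held 9.19, 4.01 and 15.1 CPM unstimulated and 681, 564 and 617 CPM stimulated. No stimulated library came near an unstimulated one, and the lowest of the 12 held 536 CPM against a highest of 15.1. The log2 fold change was 6.84 ± 0.34 and 6.08 ± 0.33 without niacin (edgeR adjusted p = 3.75e-12 and 1.48e-11), and 7.33 ± 0.35 and 6.37 ± 0.40 with it.

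Egln1, at chr8:124908587-124949324 on the minus strand, started from a higher level. Unstimulated wild-type-labelled libraries held 138, 129 and 122 CPM, and stimulated ones held 876, 768 and 760. Knockout-labelled libraries held 159, 129 and 437 CPM unstimulated and 662, 604 and 532 CPM stimulated. The third unstimulated knockout-labelled library therefore stood at 437 CPM, beside at most 159 in the other 10 unstimulated libraries. The log2 fold change was 2.63 ± 0.32 under the wild-type label and 1.31 ± 0.31 under the knockout label (edgeR adjusted p = 1.7e-06 and 0.00141). Without that library the second value was 2.06 (adjusted p = 1.89e-07). That library also had the highest unstimulated Egln3 (15.1 CPM) and Vegfa (2.48 CPM), the lowest Bnip3 (2.91 CPM), the lowest summed T cell identity genes (3087 CPM) and the lowest total count. Without it the stimulation effect under the knockout label was 6.55 for Egln3 and 7.38 for Vegfa, against 6.08 and 6.64 with it. Its TMM factor was 0.885, beside 1.027 to 1.138 in the other unstimulated libraries. The name of its column in the deposited counts lacks the tag jax that all other columns carry. What the tag stands for is not given. The part of its depth, of its marker levels and of whatever the tag marks in these values was not tested.

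BNIP3 and BNIP3L (NIX) are outer mitochondrial membrane receptors that recruit the autophagy machinery to mitochondria. Bnip3 lies at chr7:138890836-138909519 and Bnip3l at chr14:66985239-67008877, both on the minus strand. Bnip3 held 5.43, 5.57 and 5.63 CPM in unstimulated wild-type-labelled libraries and 413, 480 and 450 CPM after stimulation. In knockout-labelled libraries it went from 4.95, 5.26 and 2.91 CPM to 433, 409 and 412 CPM. The log2 fold change was 6.33 ± 0.22 and 6.54 ± 0.23 (edgeR adjusted p = 2.6e-14 and 2.48e-14), or 80.6-fold and 93.1-fold. Its relative Bnip3l rose far less and from a higher level. It held 59.5, 102 and 91.1 CPM in unstimulated wild-type-labelled libraries and 210, 198 and 212 CPM stimulated. The log2 fold change was 1.30 ± 0.19, and 1.35 ± 0.19 under the knockout label (adjusted p = 1.83e-05 and 9.62e-06). Under the latter label the low-depth library held 53.5 CPM beside 71.6 and 84.4 in the other pair, and without it the value was 1.19. Per kilobase of exon, Bnip3 stood at a median of 2.46 CPM and Bnip3l at 21.9 CPM in unstimulated libraries, whereas stimulated libraries held 182 and 45.0 CPM per kilobase. The order of the pair was thus reversed on stimulation, and the ranges of the 2 genes did not overlap in either state.

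Ankrd37 encodes an ankyrin repeat protein widely used as a marker of the hypoxia response. It lies at chr8:45996902-46005707 on the minus strand. The 11 unstimulated libraries held at most 4.31 CPM, with a median of 3.68. Stimulated wild-type-labelled libraries held 134, 127 and 110 CPM, and stimulated knockout-labelled ones held 94.2, 79.1 and 75.6 CPM. Stimulation raised it by log2 4.93 ± 0.19 and 4.70 ± 0.19 (edgeR adjusted p = 6.7e-14 and 1.77e-13). Exons of Ankrd37 overlap 57 bases of Ufsp2 and 349 bases of Lrp2bp on the other strand, genes with 25214 and 204 counts in all, and the sources used here do not give the strand setting of the counting.

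Vegfa (vascular endothelial growth factor A) and Adm (adrenomedullin, a vasodilator peptide) are secreted ligands. Vegfa, at chr17:46016993-46032369 on the minus strand, was very low without stimulation, at 31 counts over the 3 unstimulated wild-type-labelled libraries. It reached 146, 137 and 125 CPM after stimulation, and 114, 95.9 and 112 CPM under the knockout label. On the log2 scale the rise was 8.23 ± 0.49 and 6.64 ± 0.45 (edgeR adjusted p = 6.36e-11 and 4.18e-10), and the former was 8.85 without replicate 1 of the unstimulated group. Adm, at chr7:110627661-110629820 on the plus strand, stayed low even when stimulated, at 6.07, 4.40 and 5.48 CPM under the wild-type label and 3.54, 4.70 and 4.76 CPM under the knockout label. Of the 11 unstimulated libraries 7 held no Adm count, which allows a level of up to 0.102 to 0.142 CPM in them (3 counts). In unstimulated cells without niacin 1 count was seen in either label, so the ratio was 364 with a counting interval (95%) of 65.0 to 14400 under the wild-type label. Under the knockout label the ratio was 282 (50.2 to 11200), and the 1 count was in the low-depth library. With niacin, all 14 counts of the unstimulated wild-type-labelled cells were in library 1, and the ratio was 22.8 (13.3 to 42.2). Without that library this group had no Adm count. These intervals cover counting error only. The stimulated libraries of all 4 groups lay above all unstimulated ones for both genes.

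Ak4 (a mitochondrial adenylate kinase) and P4ha1 (the catalytic subunit of collagen prolyl 4-hydroxylase) are enzymes. Ak4, at chr4:101419277-101466995 on the plus strand, held 26 counts over the unstimulated wild-type-labelled libraries and 18 over the knockout-labelled ones. Replicate 1 held 21 of the former and 16 of the latter. Stimulated libraries held 62.3, 83.0 and 83.6 CPM and 70.6, 70.6 and 68.2 CPM. The rise was log2 7.65 ± 0.52 and 7.98 ± 0.55 (edgeR adjusted p = 4.47e-10 and 4.6e-10). Without replicate 1 of the unstimulated group the values were 9.35 and 10.19, fitted on 5 and 2 unstimulated counts. In wild-type-labelled cells with niacin only 3 counts were seen without stimulation, and the ratio was 1720 with a counting interval of 588 to 8340. P4ha1, at chr10:59323296-59373304 on the plus strand, was expressed in every unstimulated library, at 43.0 to 69.8 CPM. It rose to 425, 406 and 350 CPM under the wild-type label and to 295, 315 and 279 CPM under the knockout label. Its log2 fold change was 2.60 ± 0.15 and 2.39 ± 0.15 (adjusted p = 4.24e-11 and 1.19e-10). The lowest unstimulated level was that of the low-depth library, and without it the second value was 2.23. The 6 libraries without niacin did not overlap between labels, which is taken up below.

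Levels of different genes are compared per kilobase of exon, as medians over libraries. Among the 12 stimulated libraries Egln3 stood highest (220 CPM per kilobase), followed by Egln1 (197) and Bnip3 (182), and each of these overlapped with the next. P4ha1 (75.3), Ankrd37 (68.3), Hif1a (63.0), Bnip3l (45.0) and Vegfa (27.99) formed a middle range in which each also overlapped with its neighbour. Ak4 (15.1) and Adm (2.81) were lower than all others without overlap. Among the 11 unstimulated libraries the order was different, with Egln1 (35.8), Hif1a (34.0), Bnip3l (21.9) and P4ha1 (14.5) on top. Egln3 stood at 1.81, Vegfa at 0.0963 and Ak4 at 0.0274 CPM per kilobase, and Adm at 0. The 4 members with the highest unstimulated levels were also those with the smallest log2 fold changes.

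The 250 bases before each RefSeq transcription start were searched for the core of the hypoxia response element, as ACGTG or GCGTG on either strand. Of the members 9 were matched in the RefSeq promoter table (GRCm38.p6), with 13 start windows. Bnip3l was not matched. The letters ACGTG were found for 8 of the 9 genes and either form for 9 of 9, beside 18.5% and 41.5% of all 27025 genes in the table. By window, 8 of 13 held ACGTG and 12 of 13 held either form, against 16.6% and 38.6% of all 32851 windows. The windows of 1 gene can overlap, and Ak4 alone has 4. Members were counted over whole windows, annotated exon bases included. The only ACGTG matches of Egln1, Vegfa and Ak4 lay in exon sequence, as did the GCGTG match of Vegfa. Outside exons ACGTG was found for Hif1a, Bnip3, Egln3, Ankrd37 and P4ha1, and Vegfa held neither form. The shares over all genes were not split in this way. Hif1a aside, the members were picked as targets of the factor. The shares over all genes were not matched for base content or number of windows, so they describe and do not test the set. A match is a description of the letters and not a binding site.

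The upstream bases of 5 members are printed to show where the letters fall, chosen for Hif1a itself, for the window with most matches (Bnip3), for the highest stimulated level (Egln3), for the call by label (Ankrd37) and for a target that was expressed before stimulation (P4ha1). Each runs 5′ to 3′ on the strand of its gene, up to the last base before the start or before an annotated exon, and capitals mark each match. The windows are chr12:73907617-73907866 (plus strand, Hif1a), chr7:138909520-138909756 (minus, Bnip3), chr12:54203875-54204124 (minus, Egln3), chr8:45999868-46000100 (minus, Ankrd37) and chr10:59323046-59323295 (plus, P4ha1).
Hif1a: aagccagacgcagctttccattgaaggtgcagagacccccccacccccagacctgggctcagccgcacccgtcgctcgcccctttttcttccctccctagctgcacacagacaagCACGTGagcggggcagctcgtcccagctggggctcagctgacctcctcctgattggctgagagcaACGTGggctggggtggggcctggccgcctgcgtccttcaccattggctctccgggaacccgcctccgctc
Bnip3: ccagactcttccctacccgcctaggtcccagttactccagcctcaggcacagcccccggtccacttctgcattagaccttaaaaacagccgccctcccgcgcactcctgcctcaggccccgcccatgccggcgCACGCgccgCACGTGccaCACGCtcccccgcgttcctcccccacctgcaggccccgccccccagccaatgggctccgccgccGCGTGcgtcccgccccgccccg
Egln3: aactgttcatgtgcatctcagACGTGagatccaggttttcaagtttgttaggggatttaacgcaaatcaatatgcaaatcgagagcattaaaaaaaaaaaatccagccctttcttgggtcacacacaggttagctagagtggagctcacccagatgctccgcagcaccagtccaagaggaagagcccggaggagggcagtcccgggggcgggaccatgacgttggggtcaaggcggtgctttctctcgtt
Ankrd37: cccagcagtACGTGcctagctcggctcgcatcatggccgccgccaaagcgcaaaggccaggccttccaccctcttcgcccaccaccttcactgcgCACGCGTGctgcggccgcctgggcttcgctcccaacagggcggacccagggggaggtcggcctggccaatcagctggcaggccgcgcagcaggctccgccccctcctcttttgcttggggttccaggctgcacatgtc
P4ha1: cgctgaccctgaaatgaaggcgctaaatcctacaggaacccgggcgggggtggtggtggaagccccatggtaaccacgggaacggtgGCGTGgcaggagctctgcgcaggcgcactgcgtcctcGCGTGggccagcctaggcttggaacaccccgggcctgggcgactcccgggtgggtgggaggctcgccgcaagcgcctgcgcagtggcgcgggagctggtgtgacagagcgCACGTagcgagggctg
Hif1a and Bnip3 both carried the palindrome CACGTG, which counts once on each strand, starting 135 and 108 bases before the start. Bnip3 also held 3 copies of GCGTG, at 117, 99 and 35 bases before its start, the earlier pair on the other strand. The single match of Egln3 lay 229 bases before the start. In Ankrd37 an ACGTG lay at 241 bases and a pair of overlapping GCGTG matches on opposite strands at 155 and 152 bases before the start. A further ACGTG lay 6 bases before it, in exon sequence that is not printed. P4ha1 held GCGTG at 163 and 126 bases and ACGTG, on the other strand, at 16 bases before the start. Of the 2 windows of Vegfa, the one at its upstream start held neither form.

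The other genes of the pathway were read from lists of symbols, and their counts stand beside 45.1% (wild-type label) and 52.7% (knockout label) of all genes called on stimulation without niacin. Of 14 genes for HIF subunits and their oxygen-dependent control, 8 were called higher and 1 lower on stimulation in wild-type-labelled cells without niacin (median 0.64), and 8 and 1 in knockout-labelled cells (median 0.65). Hif1a, Egln1 and Egln3 are among them. Vhl, the substrate receptor of the ubiquitin ligase, rose by 0.69 ± 0.14 and 0.54 ± 0.14 (edgeR adjusted p = 0.000363 and 0.00229), and its partners Elob, Eloc and Rbx1 also rose in both. Arnt, the constant subunit, did not pass, at -0.33 ± 0.14 and -0.15 ± 0.14 (adjusted p = 0.0562 and 0.377). Epas1, which encodes the other oxygen-regulated subunit HIF-2 alpha, stayed at 2.90 to 5.40 CPM in group means and did not pass in any of the 4 backgrounds. The third hydroxylase, Egln2, was at -0.44 ± 0.24 (adjusted p = 0.147) under the wild-type label and fell by 1.02 under the knockout label (adjusted p = 0.00172). Hif1an, the asparaginyl hydroxylase that limits the transcriptional activity of the factor, fell by 0.80 under the wild-type label (adjusted p = 0.00213) and was at -0.35 ± 0.19 under the knockout label (adjusted p = 0.138). Vhl, Arnt, Epas1, Egln2 and Hif1an were picked from the list for their roles, with values known.

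Among 23 tested of 24 further hypoxia-inducible genes outside glycolysis, 18 rose and 2 fell under the wild-type label (median 2.51), and 17 rose and 2 fell under the knockout label (median 2.38). Those with the largest changes were Vldlr (a lipoprotein receptor), P4ha2, Ndrg1 and Plod2. P4ha2, a second collagen prolyl 4-hydroxylase subunit, rose by 5.77 ± 0.46 and 5.74 ± 0.47 (edgeR adjusted p = 5.01e-09 and 6.05e-09). Plod2, a collagen lysyl hydroxylase, rose by 4.78 ± 0.46 and 5.77 ± 0.50 (adjusted p = 6.32e-08 and 1.55e-08). Vldlr had no count in the unstimulated cells of either label without niacin and 41.3 ± 7.95 and 39.8 ± 4.72 CPM after stimulation (SD, n = 3). Taking 3 counts over the group as its floor, the level was at least 957-fold higher under the wild-type label and at least 864-fold higher under the knockout label. With no unstimulated count in these comparisons, Vldlr could only have been called higher, so its direction was fixed in advance. The falling pair was Fut11 (a fucosyltransferase, -1.11 ± 0.24 and -1.56 ± 0.25) and Plod1 (-0.76 ± 0.23 and -0.91 ± 0.23), chosen after their values were seen. Of 15 glycolytic targets 14 rose in each of the 4 backgrounds. The exception without niacin was Pdk1, a kinase that holds back pyruvate dehydrogenase, at 0.12 ± 0.18 and 0.17 ± 0.18 (adjusted p = 0.614 and 0.447), also chosen after its value was seen.

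**Figure D3:**
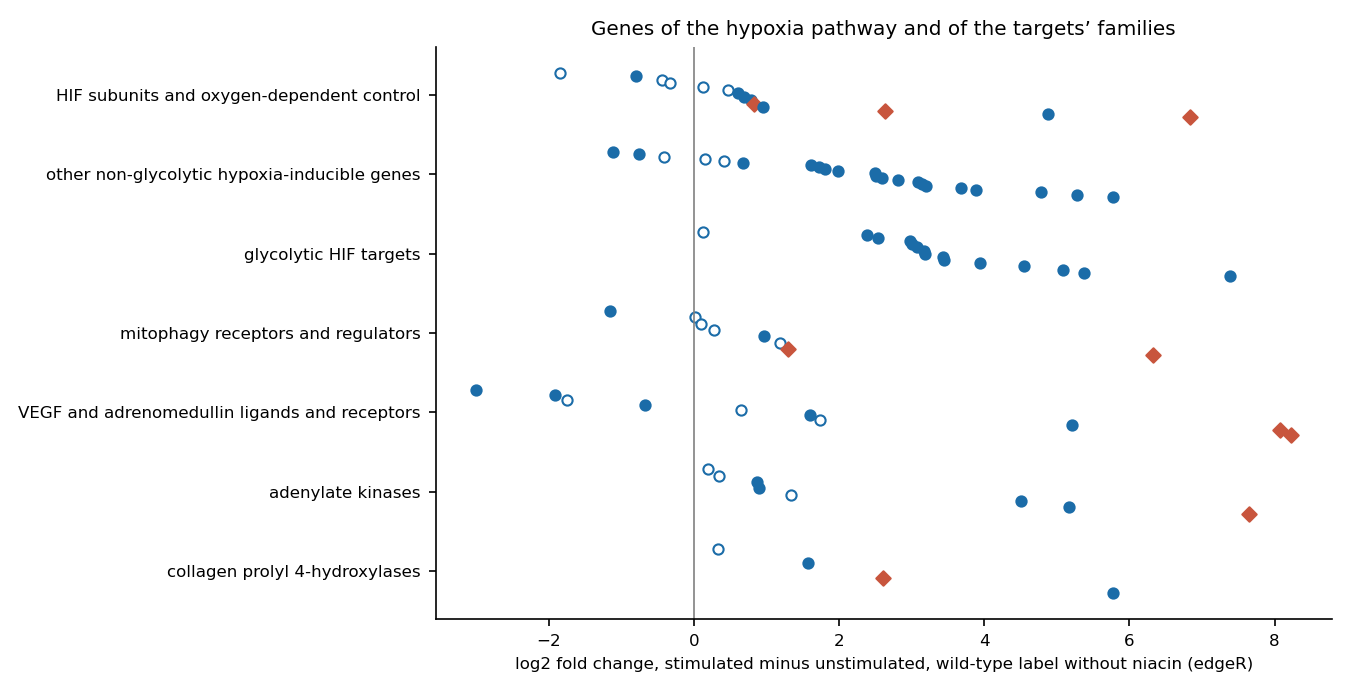
Log2 fold change on stimulation in wild-type-labelled cells without niacin (horizontal axis, edgeR) for 80 genes of 7 lists, with 1 list per row. Diamonds are members and circles other genes, filled where the adjusted p was under 0.05. Vldlr, which had no count in the unstimulated group, is left out. Vegfa (8.23), Adm (8.07) and Ak4 (7.65) are the highest points, followed by the glycolytic gene Aldoc (7.38).

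The families of the targets were read against the same background of 45.1% and 52.7% of all genes called, and nothing particular to a family is read from its count. Of 8 tested mitophagy genes, 3 rose and 1 fell under the wild-type label, and 5 rose and 1 fell under the knockout label. The gene that fell was Pink1, the kinase of the PINK1 and Parkin route, from 286 ± 77.6 to 128 ± 9.37 CPM (SD, n = 3), a log2 change of -1.16 ± 0.25, and by 1.73 under the knockout label (edgeR adjusted p = 0.000732 and 1.03e-05). Of 10 tested VEGF and adrenomedullin genes, 4 rose and 3 fell under the wild-type label, and 3 rose and 4 fell under the knockout label. The ligands Vegfa and Adm rose, whereas Calcrl, the receptor of adrenomedullin, fell by 3 on the log2 scale in both labels (adjusted p = 4.71e-06 and 4.49e-06). Nrp1, a VEGF co-receptor, fell by 1.91 and 2.49 (adjusted p = 6.09e-05 and 2.53e-06). Of 8 tested genes in the list of adenylate kinases 5 and 6 rose, with Ak4 the highest in either label at 7.65 and 7.98. The list includes Cmpk1, a UMP/CMP kinase, which did not pass in either label. Of 4 tested genes in the list of collagen prolyl 4-hydroxylases 3 rose in each label, namely P4ha1, P4ha2 and P4hb. The other was P4htm, listed by its name and not as a known collagen enzyme. It fell under the knockout label (-1.02 ± 0.35, edgeR adjusted p = 0.0176).

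Niacin was compared with no niacin in each of the 4 combinations of stimulation and label. No member was called in any of them by edgeR, where the share of all genes called was 0%, 0%, 0% and 0.00592%. At an unadjusted p under 0.05 there were 2 members in unstimulated wild-type-labelled cells, 2 in unstimulated knockout-labelled cells, 2 in stimulated wild-type-labelled cells and 1 in stimulated knockout-labelled cells. No share of all genes at this unadjusted threshold is given here or below, so such counts describe the members only. DESeq2 called 0, 0, 1 and 0 members, and limma voom with sample weights called 0, 0, 3 and 0. Only edgeR shares of all genes are given here and below, so counts by the other methods have no background beside them. The member with the largest difference in stimulated cells was Hif1a itself. Its 3 stimulated wild-type-labelled libraries with niacin (204 to 290 CPM) lay below the 3 without (374 to 412), and the same held under the knockout label (317 to 368 below 433 to 446). Groups did not overlap in this direction for 6.78% and 6.82% of all genes. Under the knockout label P4ha1 was also lower and Egln1 higher without overlap, the latter beside 7.0% of all genes.

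The log2 difference of Hif1a was -0.75 ± 0.15 under the wild-type label (edgeR adjusted p = 0.252, and 0.00343 with DESeq2) and -0.39 ± 0.15 under the knockout label (edgeR adjusted p = 0.866). Averaged over both labels it was -0.57 ± 0.11 and passed (edgeR adjusted p = 0.0486), the only call among the members, where 0.0948% of all genes were called and 0.0711% were called lower. All 6 libraries with niacin lay below all 6 without. The call was lost in 11 of the 12 fits that left out 1 library (adjusted p = 0.0525 to 0.168), and it held when replicate 3 of the wild-type-labelled niacin arm was the one left out (adjusted p = 0.0141). The log2 difference was -0.66 to -0.52 over the 12 fits. DESeq2 gave an adjusted p of 0.000157. It was also lost with RLE factors (adjusted p = 0.051) and with the replicate block (0.0683), with the log2 value at -0.57 in both. In unstimulated cells no member was called over both labels by edgeR, DESeq2 or voom (0.0948% of all genes by edgeR), with 3 at an unadjusted p under 0.05. The average difference of Hif1a there was -0.12 ± 0.11 (adjusted p = 0.796), and the test of the difference between stimulated and unstimulated cells gave -0.45 ± 0.16 (adjusted p = 0.405).

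In the wild-type-labelled niacin arm of the stimulated cells, replicates 1 and 2 stood apart from replicate 3 in Hif1a (214 and 204 against 290 CPM) and in several targets. Bnip3 held 276 and 289 against 439 CPM, and Bnip3l held 159 and 147 against 222 CPM. P4ha1 held 318 and 305 against 383 CPM, and Ak4 held 63.0 and 50.3 against 79.7 CPM. Mitochondrial genes took 0.187% and 0.217% of the counts of these 2 libraries, 0.605% in replicate 3 and 0.374% to 0.566% in the other 9 stimulated libraries. The part of this in the niacin difference was not tested. Without both libraries the difference of Hif1a was -0.46 under the wild-type label (adjusted p = 1.0) and -0.43 over both labels (adjusted p = 0.694), and that of Bnip3 under the wild-type label went from -0.42 ± 0.18 to -0.03. Without replicate 3 instead, both passed under the wild-type label, at -0.93 for Hif1a and -0.66 for Bnip3 (adjusted p = 0.00666 and 0.0366). With all libraries kept, the Hif1a groups did not overlap under either label.

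None of the 9 targets was called for niacin by edgeR. With niacin in stimulated cells the average difference over both labels was -0.26 ± 0.12 for Bnip3, -0.19 ± 0.13 for Bnip3l, -0.18 ± 0.10 for P4ha1, -0.04 ± 0.18 for Egln3 and 0.25 ± 0.11 for Ankrd37 (edgeR adjusted p = 0.561, 0.697, 0.605, 0.982 and 0.539). The 95% intervals were -0.52 to -0.01, -0.47 to 0.09, -0.39 to 0.02, -0.42 to 0.34 and 0.02 to 0.48. Of the 10 members 7 had a negative value, and the median was -0.15 beside 0 over all genes. For Egln1, Vegfa, Adm and Ak4 the values were 0.16 ± 0.21, 0.07 ± 0.23, -0.32 ± 0.46 and -0.12 ± 0.25, with adjusted p of 0.853 to 0.965. A p that misses the threshold does not show that these genes were unaffected.

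**Figure D4:**
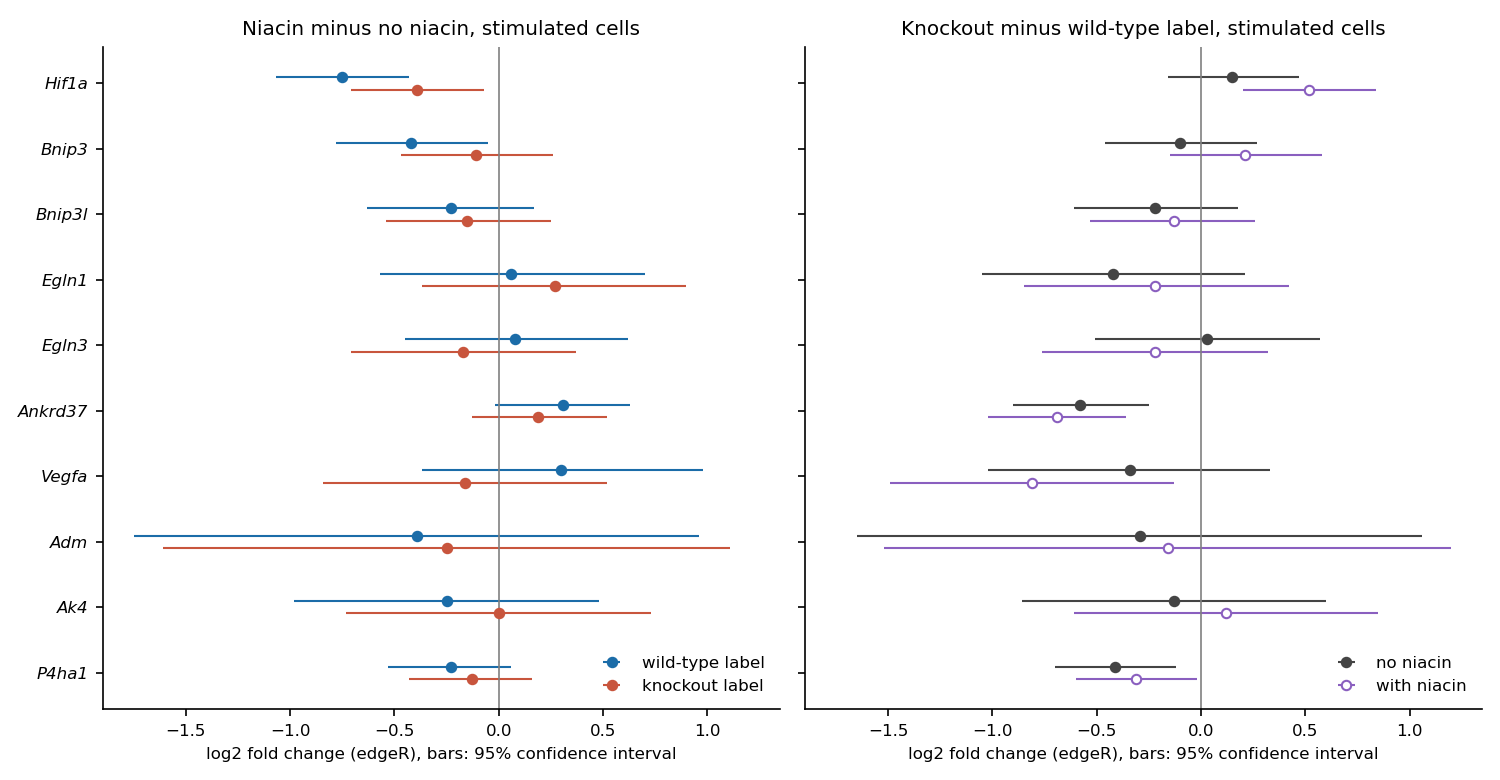
Log2 fold change of each member in stimulated cells (horizontal axis, edgeR, bars are 95% confidence intervals), on the left for niacin against no niacin by label, on the right for the knockout against the wild-type label without and with niacin. Hif1a is lowest with niacin (-0.75 and -0.39), and Ankrd37 is lower with the knockout label (-0.58 and -0.69).

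In unstimulated cells under the wild-type label Bnip3 was the only member that was higher with niacin without overlap. It held 5.98 to 6.84 CPM with niacin against 5.43 to 5.63 without (0.21 ± 0.19, edgeR adjusted p = 1), and 4.43% of all genes were higher without overlap. Ak4 was lower without overlap there, but on 3 counts against 26, and 5.22% of all genes were lower in this way. Under the knockout label Egln1 was at 115 and 113 CPM with niacin against 129 to 437 without (-1.08 ± 0.35, adjusted p = 0.608). Without the third library of the latter group its difference was -0.33. Hif1a was at 193 and 192 CPM against 201 to 236 (-0.17 ± 0.17, adjusted p = 0.836), and 7.16% of all genes were lower without overlap.

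The genotype label was compared within each of the 4 conditions. By edgeR 0 of 10 members were called in unstimulated cells, unstimulated cells with niacin and stimulated cells, beside 0.0415%, 0.0355% and 0.113% of all genes. At an unadjusted p under 0.05 the counts were 3, 1 and 2. DESeq2 called 0, 0 and 1, and voom called 0, 0 and 2. In stimulated cells with niacin 1 member was called (1.44% of all genes, 0.865% lower), namely Ankrd37. DESeq2 called 2 there and voom called 4. It held 153, 134 and 172 CPM under the wild-type label and 99.8, 98.7 and 86.0 CPM under the knockout label. The log2 difference was -0.69 ± 0.16 (edgeR adjusted p = 0.0345). The call was lost in 5 of 6 fits that left out 1 library (log2 -0.78 to -0.60, adjusted p = 0.0425 to 0.139 over the 6) and without libraries 1 and 2 of the wild-type-labelled group (-0.89, adjusted p = 0.188). In stimulated cells without niacin the difference was -0.58 ± 0.16 (adjusted p = 0.248, and 0.0279 with DESeq2), and again no library of 1 label overlapped with the other.

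More members separated by label in stimulated cells than were called. Without niacin, 5 members were lower under the knockout label without overlap, namely Bnip3l, Egln1, Ankrd37, Vegfa and P4ha1, and Hif1a was higher. The same was seen for 11.2% (lower) and 9.34% (higher) of all genes. With niacin 4 were lower, namely Egln3, Ankrd37, Vegfa and P4ha1, and Hif1a was higher, beside 14.0% and 12.5% of all genes. Ankrd37, Vegfa and P4ha1 were thus lower in both. The comparisons used different libraries, but the labels do not say whether these came from different mice, so they may not be independent. P4ha1 held 350 to 425 CPM in stimulated wild-type-labelled libraries and 279 to 315 in knockout-labelled ones, a log2 difference of -0.41 ± 0.14 (edgeR adjusted p = 0.411). With niacin the values were 305 to 383 and 263 to 277 CPM, a difference of -0.31 ± 0.14 (adjusted p = 0.233). Vegfa held 125 to 146 against 95.9 to 114 CPM without niacin (-0.34 ± 0.32, adjusted p = 0.854) and 136 to 205 against 90.1 to 107 CPM with it (-0.81 ± 0.33, adjusted p = 0.184). Hif1a, in the other direction, was at 0.15 ± 0.15 without niacin (adjusted p = 0.866) and 0.52 ± 0.15 with it (adjusted p = 0.0792). The latter was 0.19 without replicates 1 and 2 of the wild-type-labelled group and 0.69 without replicate 3 (adjusted p = 0.838 and 0.0146). With the low-depth unstimulated library out of the fit, Hif1a and Vegfa passed at unchanged log2 differences (adjusted p = 0.0285 and 0.0278).

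In unstimulated cells the label differences of 3 members depended on the low-depth knockout-labelled library (replicate 3). Egln1, Egln3 and Vegfa were at 0.90 ± 0.31, 0.79 ± 0.29 and 1.25 ± 0.56 with it (edgeR adjusted p = 0.409, 0.409 and 0.454) and at 0.15, 0.32 and 0.50 without it. That library also had the lowest summed T cell identity genes of its group, whose part was not tested. Leaving out replicate 2 instead gave calls for Egln1 (1.20) and Egln3 (1.17), with adjusted p of 0.043 and 0.0232. Bnip3 (2.91 to 5.26 against 5.43 to 5.63 CPM) and Ankrd37 (2.73 to 3.68 against 3.92 to 4.31 CPM) were lower under the knockout label without overlap, as were 4.12% of all genes. With niacin Egln3 (5.93 and 7.37 against 3.67 to 4.61 CPM) and Ak4 were higher without overlap, as were 7.30% of all genes. Over the mean of the 4 conditions no member was called (0.326% of all genes), with 3 at an unadjusted p under 0.05, and 2 called by DESeq2 and 3 by voom. Ankrd37 came closest at -0.38 ± 0.09 (edgeR adjusted p = 0.0652, and 0.00423 with DESeq2), and P4ha1 was at -0.24 ± 0.07 (adjusted p = 0.215, and 0.0322 with DESeq2). With the low-depth library left out Ankrd37 passed (-0.41, edgeR adjusted p = 0.0259), as it did without replicate 3 of the unstimulated wild-type-labelled niacin group (-0.42, adjusted p = 0.0405). Egln3 was at 0.33 ± 0.14 (adjusted p = 0.422) and passed without replicate 2 of the unstimulated knockout-labelled group (0.43, adjusted p = 0.0469).

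The tests of how effects differed gave no call among the members by edgeR. For the niacin effect by stimulation 0% of all genes were called after adjustment. At an unadjusted p under 0.05, for which no share of all genes is given, there were 4 members. For the niacin effect by label the values were 0% and 1 member, and for the stimulation effect by label 0.077% and 4 members. DESeq2 called 0 members in each, and voom called 0, 0 and 2. Egln3 had the lowest p for the stimulation effect by label, at -0.86 ± 0.28 (edgeR adjusted p = 0.134), a smaller rise under the knockout label. It was -0.63 without the low-depth library and -1.05, past the threshold, without replicate 2 of the same group (adjusted p = 0.131 and 0.0324).

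Outside the members, Ramp1, Aldoc and Zfp395 of the pathway lists were called by label in stimulated cells. The shares of all genes called by edgeR were 0.113% without niacin and 1.44% with it. For the stimulation effect by label the share was 0.077%. Ramp1, which pairs with Calcrl to form a peptide receptor, held 32.2 ± 3.88 CPM in stimulated wild-type-labelled cells and 17.2 ± 4.02 in knockout-labelled ones (SD, n = 3), a log2 difference of -0.90 ± 0.18 (edgeR adjusted p = 0.0464). With niacin it was -1.03 ± 0.18 (adjusted p = 0.00571), and its stimulation effect differed by label by -0.96 ± 0.18 (adjusted p = 0.0351). The glycolytic gene Aldoc, at 520 ± 27.7 against 249 ± 36.1 CPM in stimulated cells with niacin, differed by -1.07 ± 0.17 (adjusted p = 0.0045). Zfp395, a hypoxia-inducible zinc finger gene, differed there by -0.81 ± 0.18 (adjusted p = 0.0281).

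Genes with the pattern most like that of a member were found by the root mean square difference of the 8 group means of log2 CPM, each gene centred on its own mean, over 9754 genes at 5 CPM or more. The 5 nearest to Hif1a were Rbbp8 (0.092), Asf1a (0.114), Rbpj (0.116), Lactb2 (0.117) and Vma21 (0.117). Rbbp8, a DNA end resection factor, held group means of 43.8 and 45.0 CPM in stimulated cells without niacin, and 28.7 (wild-type label) and 41.2 (knockout label) with it. The nearest member to Hif1a was Bnip3l (0.347). The 5 named genes were picked as the nearest of 9754, so their lying closer than any target carries no information. The distance is not scaled to the size of a change, so targets with far larger rises lie far from Hif1a in any case. Bnip3l was nearest to Mnat1 (0.06), P4ha1 to Pfkm, the muscle-type phosphofructokinase (0.084), Egln1 to Nenf (0.137), Ankrd37 to the hypoxia-inducible Ndrg1 (0.185), Bnip3 to Cd24a (0.204), Ak4 to Emilin2 (0.245) and Adm to Prelid2 (0.287). Egln3 and Vegfa were both nearest to Pkp2 (0.341 and 0.399). Ndrg1 held group means of 691 and 642 CPM in stimulated wild-type-labelled cells without and with niacin, and 467 and 431 CPM in knockout-labelled ones. These distances describe 8 group means of the same libraries and carry no test.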

How the data were processed

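Values were the counts of reads per gene that the authors deposited. RNA from 72 h cultures was amplified by SMART-seq V4 chemistry, per the labels' protocols. Per the submitters' processing notes, the authors used Trimmomatic 0.38, STAR 2.7.0e and featureCounts 1.6.3, with both GRCm38.p5 and mm10 listed as builds. No source used here gives the strand setting. Symbols came from GENCODE vM21, and promoter windows from RefSeq (GRCm38.p6).

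Libraries were grouped by the labels. The table was fitted whole with edgeR 4.0.16 in R 4.3.3 (quasi-likelihood F test with 1 mean for each group, TMM factors, filterByExpr with a minimum count of 10), which left 16882 genes, 15 residual degrees of freedom and a biological coefficient of variation of 27.4%. Benjamini-Hochberg adjustment was made per comparison, with a threshold of 0.05. Standard errors came from the F statistic. CPM used TMM factors. Effects that differ by a factor were averaged over the other one. The fit was tested on simulated data.

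The members, lists and comparisons were chosen with earlier results of these data known. Named genes were the members, Hcar2, up to 4 called genes per list and comparison with the largest change at 5 CPM or more, and the genes nearest in pattern. Exceptions are named as such. Alternatives were DESeq2 1.42.0, RLE factors, no filter, the replicate number as a block, voom (limma 3.58.1) with quality weights, only the compared groups, and each library left out. Markers of NK, myeloid, erythroid and stromal cells were also read.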

Additional observations from a re-analysis of the deposited data

Results flagged for a closer look

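The niacin differences of Egln1 (PHD2) in knockout-labelled cells had opposite signs without and with stimulation, and neither passed the threshold. Without stimulation both libraries with niacin lay below the 3 without, at a log2 difference of -1.08 (edgeR adjusted p = 0.608), and after stimulation all 3 with niacin lay above the 3 without, at 0.27 (edgeR adjusted p = 1). This difference within the knockout label was not tested by itself. Averaged over both labels the test of it gave 0.81 (edgeR adjusted p = 0.405), and without the low-depth library at 437 CPM the unstimulated value was -0.33.

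The label differences of Egln3 (PHD3) in cells with niacin had opposite signs without and with stimulation, and neither passed the threshold. The knockout-labelled libraries all lay above the wild-type-labelled ones without stimulation, at 0.74 (edgeR adjusted p = 1), and all lay below them after it, at -0.22 (edgeR adjusted p = 0.686). This difference was not tested by itself. Averaged over niacin the stimulation effect differed by label by -0.86 (edgeR adjusted p = 0.134).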

How the results depend on the processing

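The stimulation calls of the members held their direction and count under all settings run, except that 9 to 10 were called in wild-type-labelled cells with niacin when 1 library was left out. No value that passed the threshold changed sign. Values that did not pass could, as Hif1a did on stimulation in wild-type-labelled cells with niacin (0.16, and -0.01 without replicate 3 of the stimulated arm). Counts of members called elsewhere were low and moved with the setting. No share of all genes is given for the other settings, so these counts are not set against a background. Without the filter on low counts they were 1 and 2 for niacin in unstimulated wild-type-labelled and knockout-labelled cells, 2 for their mean, 1 for niacin in stimulated wild-type-labelled cells, 3 for the label in unstimulated cells, 2 for the label in stimulated cells with niacin, 1 for the label over 4 conditions, and 2, 1 and 2 for the niacin effect by stimulation, the niacin effect by label and the stimulation effect by label. With DESeq2 they were 1 for niacin in stimulated wild-type-labelled cells, and 1, 2 and 2 for the label in stimulated cells, stimulated cells with niacin and over 4 conditions. With voom these 4 were 3, 2, 4 and 3, niacin in stimulated cells over both labels gave 3, and the stimulation effect by label gave 2. For the label in stimulated cells with niacin, 2 were called with the compared groups alone, 3 with the low-depth library out of the fit and 0 without replicates 1 and 2 of the wild-type-labelled niacin arm, where niacin over both labels also gave 0. RLE factors gave 0 for the latter. The cause was not tested. Adm or Ak4 gave no value in some fits of the compared groups alone.

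Leaving out 1 library gave 0 to 2 calls for niacin in stimulated wild-type-labelled cells, for the label in unstimulated cells and for the label in stimulated cells with niacin. It gave 0 to 1 for niacin in stimulated cells over both labels, the label over 4 conditions and the stimulation effect by label.

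With the replicate number as a block, 0 members were called for niacin in stimulated cells over both labels, and no other count moved by over 1.5 times. The numbers are only shared: libraries of 1 number had a mean correlation of deviations of 0.012 over 77 pairs, beside -0.005 over 154 pairs of different numbers. Leaving out the low-depth library, and replicates 1 and 2 of the wild-type-labelled niacin arm, were settings chosen after seeing the data.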
